A study of Mus musculus with 6 samples.

Results

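The IL-10 family gene cluster of the mouse holds Il24, Il20, Il19 and Il10, in that order along chromosome 1, and the occupancy of the chromatin regulator Ezh2 was measured across it in Th1 and Th2 cells. The cluster was taken as the 160 kb window chr1:132775000-132935000 of the build mm9. It was chosen by gene content and not by any measured value, though with earlier results of these data known. The window gave 160 bins of 1 kb out of 2638957 on chromosomes 1 to 19 and X. The 5′ end of Il10 was placed near position 132916400, in the bin chr1:132916001-132917000. The other 3 genes were placed only by their order, since no mm9 annotation was used here, so positions below are distances from the bin with the Il10 5′ end. In the order given by the RefSeq gene table of GRCm38.p6, Fcmr precedes Il24, the long noncoding RNA gene Gm41952 lies between Il19 and Il10, and Mapkapk2 follows Il10.

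Cells and libraries were as follows. Naive CD4 T cells (CD44lowCD62Lhigh) from the spleen of C57BL/6 mice had been cultured for 5 days, the first 2 of them with plate-bound anti-TCRβ at 10 µg/ml, anti-CD28 at 1 µg/ml and IL-2 at 15 ng/ml, then 3 days without the stimulating antibodies. Th1 cultures also held IL-12 at 10 ng/ml and an antibody to IL-4, and Th2 cultures held IL-4 at 100 ng/ml and an antibody to IFN-γ. Each cell type had an anti-Ezh2 polyclonal library, a control rabbit IgG polyclonal library and an input DNA library, 1 of each, so there was no replicate spread to measure. All intervals below cover counting error only, and all tests compare libraries, not cell types. Neither the age of the mice nor any pooling is stated in the labels, and the cell type labels were not checked against marker genes because no expression was measured in this series.

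Ezh2 is the enzyme within the Polycomb repressive complex known as PRC2 that adds methyl groups to histone H3 at genes kept silent, and in mammals PRC2 is concentrated at promoters rich in CG dinucleotides. Il10 encodes interleukin 10, a cytokine that restrains inflammation and that several helper T cell types can make, Th2 cells among them. Il24 encodes a cytokine induced by IL-4 in mouse T cells, and Il19 and Il20 encode related cytokines known mostly from myeloid and epithelial cells. IL-10 signals through the receptor chains Il10ra and Il10rb. IL-19, IL-20 and IL-24 share receptors that contain Il20rb, and all 4 cytokines activate Stat3.

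Of the 4 genes, Il19 and Il20 matched the RefSeq promoter table of GRCm38.p6. The 250 bases before each start are shown because CG content is the sequence feature most tied to Ezh2 at promoters. Both lie on the minus strand, at chr1:130940116-130940365 for Il19 and chr1:130911297-130911546 for Il20 in GRCm38.p6, coordinates that do not apply to the mm9 positions used elsewhere. CG, which reads the same on both strands, is in capitals.
Il19: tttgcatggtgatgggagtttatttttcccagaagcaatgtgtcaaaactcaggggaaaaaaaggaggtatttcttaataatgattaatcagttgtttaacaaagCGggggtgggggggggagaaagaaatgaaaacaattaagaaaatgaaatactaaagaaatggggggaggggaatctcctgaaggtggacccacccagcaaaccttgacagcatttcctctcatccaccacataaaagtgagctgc
Il20: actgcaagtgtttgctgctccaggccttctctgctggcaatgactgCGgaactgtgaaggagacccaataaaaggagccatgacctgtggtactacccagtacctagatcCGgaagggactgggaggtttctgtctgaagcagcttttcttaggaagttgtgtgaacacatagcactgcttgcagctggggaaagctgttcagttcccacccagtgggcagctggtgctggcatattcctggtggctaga
The Il19 promoter held 1 CG and the Il20 promoter held 2, against a median of 6 over the 32851 promoters of the table. At most 1 CG was found in 18.8% of those promoters and at most 2 in 29.0%, and 92.1% held at least 1. Because neither promoter was placed in mm9, no Ezh2 value is given for it.

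The first question was whether Ezh2 was enriched over input anywhere along the cluster. A level is the number of distinct interval positions, each counted once, per 1000000 positions of the library on chromosomes 1 to 19 and X. In Th1 the window held 1208 Ezh2 positions (a level of 111.8, 95% interval 105.5 to 118.2), 1333 input positions (a level of 85.6, 81.0 to 90.3) and 768 control antibody positions (a level of 82.3, 76.6 to 88.4). In Th2 it held 1368 Ezh2 positions (a level of 91.4, 86.6 to 96.4) and 1037 input positions (a level of 80.6, 75.8 to 85.7). Chromosome 1 of the Th2 control antibody library was not analysed here, so the Th2 folds rest on input alone and have no control antibody value beside them. In both cell types Ezh2 thus stood above the input of the same cell type, by a small factor. The Th1 control antibody lay at the level of the Th1 input.

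Over the whole cluster, the Ezh2 level divided by the input level gave a fold of 1.31 in Th1 (95% exact Clopper-Pearson interval 1.21 to 1.41) and, in Th2, of 1.13 (1.05 to 1.23). The control antibody was 0.962-fold over input in Th1 (0.879 to 1.05). With the input of the other cell type as reference, the Ezh2 fold was 1.39 in Th1 and only 1.07 in Th2. No interval was computed for those 2 folds. These values were low beside Ezh2 domains called elsewhere in the genome from the same libraries. Called regions of at least 10 kb, which were picked for a high fold, had a median of 8.37-fold in the 213 of Th1 and 9.14-fold in the 316 of Th2, and their lowest folds were 4.38 and 3.85.

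**Figure D1:**
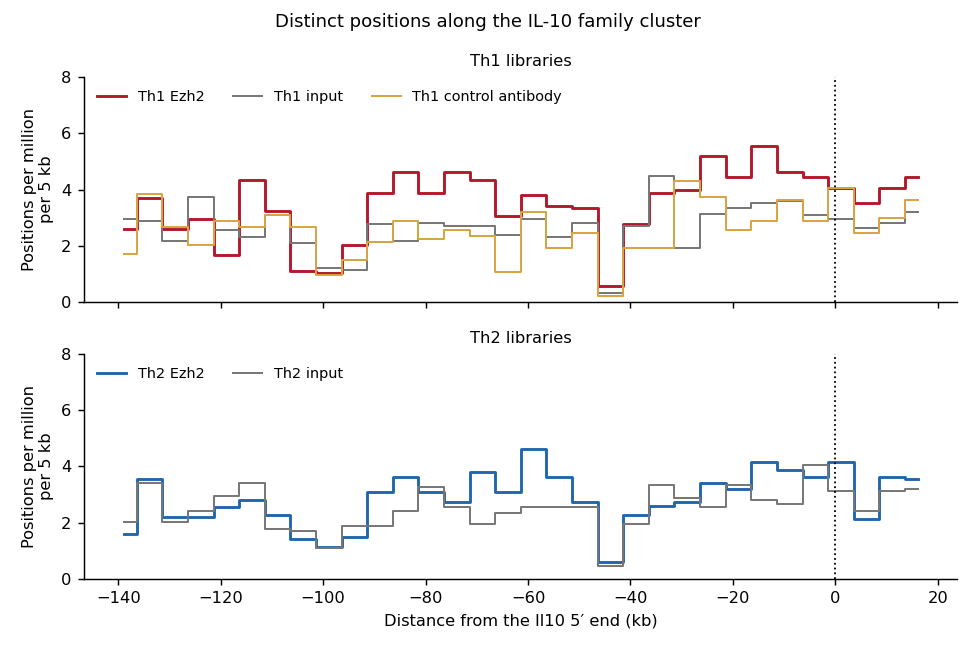
Level of each library, in distinct positions per 1000000 positions, in 5 kb steps along the cluster, against the distance from the Il10 5′ end (dotted line). Ezh2 (red in Th1, blue in Th2) followed input (grey) and, in Th1, the control antibody (yellow) at the dips near -45 and -100 kb, and lay above input over most of the stretch from about -90 kb to the right end in Th1.

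No 1 kb bin of the cluster was called. A call needed at least 10 positions over Ezh2 and input together, a one-sided exact binomial test with an adjusted p below 0.05 over all tested bins, and a fold of at least 2 after 0.5 was added to each count. In Th1, 134 bins could be tested and 0 were called, and in Th2 130 could be tested and 0 were called. Over all tested bins the share called was 0.992% in Th1 and 1.21% in Th2, so that 0 calls lies near the background and says little about the cluster by itself. At an unadjusted p below 0.05 there were 14 bins in Th1 and 6 in Th2, where 7.68% and 7.17% of all tested bins had one, and 10 of 129 bins for the control antibody (4.92% of all). Of the control antibody bins 0 were called, against 0.00151% of all. The median fold over the tested bins of the cluster was 1.31 in Th1 and 1.14 in Th2, against 1.01 and 0.974 over all tested bins. With all deposited reads in place of distinct positions, 10 bins were called in Th1 and 9 in Th2, against 3.83% and 5.83% of all tested bins.

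The tested bins of highest fold are given as a description, with 3 picked in each cell type and none of them called. No bin was in both lists. For so few picks out of 134 tested bins in Th1 and 130 in Th2, that does not show a difference between the cell types. The highest tested bins of Th1 lay 69 kb before the Il10 5′ end (chr1:132847001-132848000), with 9 Ezh2 positions against 1 in input, then 29 kb and 55 kb before it, with 9 against 3 and 16 against 6. The control antibody was also above input in these bins, with folds of 3.90, 4.06 and 2.44, beside Ezh2 folds of 9.13, 3.91 and 3.66. The control antibody folds rest on 3, 8 and 9 positions against the same 1, 3 and 6 in input. Bins picked for a high Ezh2 fold tend to have a low input count, which raises both folds. In Th2 the same bins stood at 1.17-fold, 0.455-fold and 1.19-fold. The highest tested bins of Th2 lay 85 kb before the Il10 5′ end (chr1:132831001-132832000), with 14 Ezh2 positions against 1, then 53 kb before it with 17 against 2, and 71 kb before it with 13 against 2. In Th1 these bins stood at 1.63-fold, 0.755-fold and 2.02-fold. The lowest adjusted p in the cluster, by the exact binomial test, was 0.132 in Th1 and 0.0766 in Th2.

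Depth limited what a 1 kb bin could show. With 8 input positions, the median in Th1 rounded down, a call needed 22 Ezh2 positions (3.81-fold), and the fullest bin held 16. With the median of 6 input positions in Th2 a call needed 28 (3.77-fold), and the fullest bin held 19. In addition, 12 of the 160 bins held at most 2 positions in each input.

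Tiles of 10 kb gave tighter values. The cluster held 16, and all 16 were tested against a background of 250235 tiles in Th1, of which 1.87% were called, and 250354 in Th2, of which 2.2% were called. None of the 16 was called in Th1 or Th2, nor for the control antibody, where 0.0268% of all tiles were. With the median input of 84 positions in Th1 a call needed 117 Ezh2 positions (2.00-fold), and the fullest tile held 108. With 69 in Th2 it needed 162 (2.01-fold), and the fullest tile held 123. In libraries simulated at that depth, a fold of 1.5 was called in 2.0% of tiles in each cell type. A fold of 2 was called in 46% in Th1 and 42% in Th2, and a fold of 3 in 100%. Nearly all simulated tiles had no difference, so the adjustment over all tiles was stricter there than in the real libraries. At an unadjusted p below 0.05 there were 9 tiles in Th1, 3 in Th2 and 1 for the control antibody, where such tiles made up 10.8%, 10.4% and 7.43% of all. The median fold was 1.36 in Th1 and 1.11 in Th2, against 0.899 and 0.892 over all tested tiles, and 0.983 for the control antibody against 1.01. The highest upper limit of any tile was 2.46-fold in Th1 and 2.28-fold in Th2. The lowest fold of the regions of at least 10 kb given above was higher, but the calling of their bins itself sets a floor under it. Without the limit of fold, 2 tiles passed in Th1, 91 to 82 kb and 31 to 22 kb before the Il10 5′ end, with adjusted p of 0.00877 and 0.00222 by the exact binomial test. In Th2 1 tile passed, 61 to 52 kb before it, with an adjusted p of 0.0259 by the same test. Of all tiles 4.71% in Th1 and 4.74% in Th2 passed in that way.

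**Figure D2:**
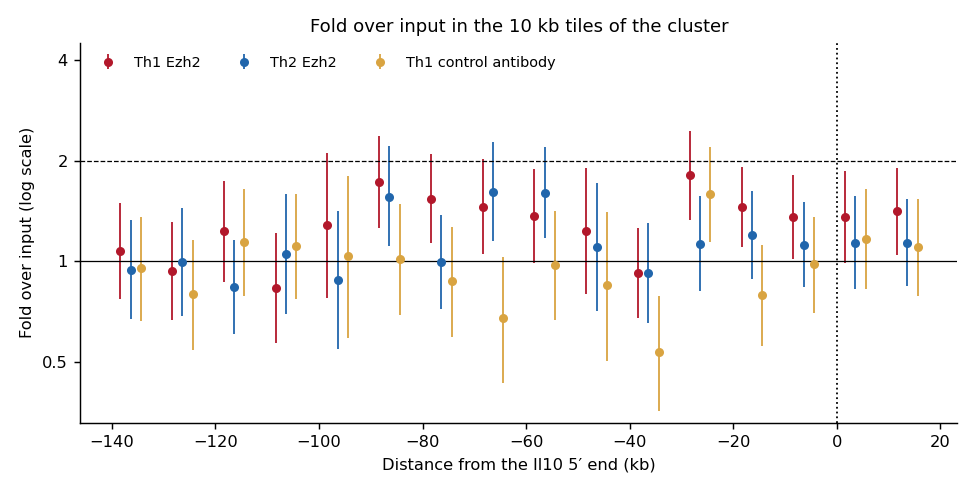
Fold over input (log scale) of Th1 Ezh2, Th2 Ezh2 and the Th1 control antibody in the 16 tiles of 10 kb, with 95% exact intervals for counting error, against the distance from the Il10 5′ end (dotted line). The dashed line marks the fold of 2 that a call needed, and no Ezh2 tile reached it.

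The excess over input was not even along the window. The first 40 kb, which begin at the Il24 side, had a fold of 1.02 in Th1 (240 Ezh2 and 340 input positions, 95% interval 0.859 to 1.20) and 0.941-fold in Th2 (278 and 254, 0.791 to 1.12). The next 40 kb were the highest in both cell types, 1.53 in the Th1 libraries (1.30 to 1.81) and 1.27 in the Th2 libraries (1.07 to 1.51), where the control antibody was at 0.880-fold (0.716 to 1.08). In the third stretch the Th1 fold was 1.30 (1.11 to 1.53) and that of Th2 was 1.20 (1.01 to 1.42). In the last, with Il10, the Th1 fold was 1.40 (1.21 to 1.61) and that of Th2 was 1.15 (0.989 to 1.33). At the Il24 side, then, the interval of both cell types held 1, and from there to the end of the window the Th1 interval did not. This holds with library totals as scaling, where the median over all tested 10 kb tiles was 0.899 in Th1 and 0.892 in Th2. A fold near 1 is therefore not the typical value. Scaling to the tiles below the median of Ezh2 over input, which raises every fold, was not applied to these stretches.

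Among single tiles, 7 of 16 had an interval wholly above 1 in Th1 and 3 in Th2, and 2 tiles did so in both. The shares of all tiles with such intervals were not counted, so these numbers only describe the cluster. One shared tile spanned 91 to 82 kb before the Il10 5′ end (chr1:132825001-132835000), with 92 Ezh2 and 77 input positions in Th1, 1.72-fold (1.26 to 2.36), and 100 and 55 in Th2, 1.56-fold (1.11 to 2.21). The control antibody was at 1.02-fold there (0.694 to 1.48). The other spanned 71 to 62 kb before it, with a Th1 fold of 1.46 (1.06 to 2.02), a Th2 fold of 1.61 (1.15 to 2.28) and the control antibody at 0.677-fold (0.434 to 1.03). Th2 alone had an interval above 1 in the tile from 61 to 52 kb before the Il10 5′ end, at 1.602-fold (1.18 to 2.19) on 123 and 66 positions, and the Th1 fold there was 1.37 (0.992 to 1.89). The highest Th1 tile, 31 to 22 kb before the Il10 5′ end (chr1:132885001-132895000), stood at 1.81-fold (1.33 to 2.46) on 99 and 79 positions. In that tile the control antibody was itself at 1.59-fold (1.14 to 2.20), on 75 positions against the same input, and Th2 Ezh2 was at 1.13-fold (0.819 to 1.56). The part of the control antibody's excess in the Th1 value was not tested.

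Il10 itself was examined around its 5′ end. The bin that holds it had 8 Ezh2 positions and 6 input positions in Th1, 11 and 6 in Th2, and 11 control antibody positions in Th1. The control antibody count was thus the highest of the 3 Th1 libraries in that bin, at 3.06-fold over input (1.04 to 10.1). Over the 5 bins centred on it, the Th1 fold over input was 1.501 (50 and 48 positions, 0.990 to 2.28) and the Th2 fold 1.24 (62 and 43, 0.827 to 1.87), and the control antibody 1.22-fold (35 positions, 0.765 to 1.92). All 3 intervals held 1, so that with library totals as scaling no excess at the start of Il10 was detectable at this depth in either cell type. With scaling to the tiles below the median of Ezh2 over input, which raises every fold, the values were 2.14 in Th1 (1.41 to 3.25) and, in Th2, 1.74 (1.16 to 2.63), both with intervals above 1. The control antibody was then at 1.48-fold (0.929 to 2.34). Over 21 bins, with library totals again, the Th1 fold was 1.39 (193 and 200 positions, 1.14 to 1.70) and the Th2 fold 1.07 (212 and 170, 0.872 to 1.32), with the control antibody at 1.05-fold (0.835 to 1.32).

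**Figure D3:**
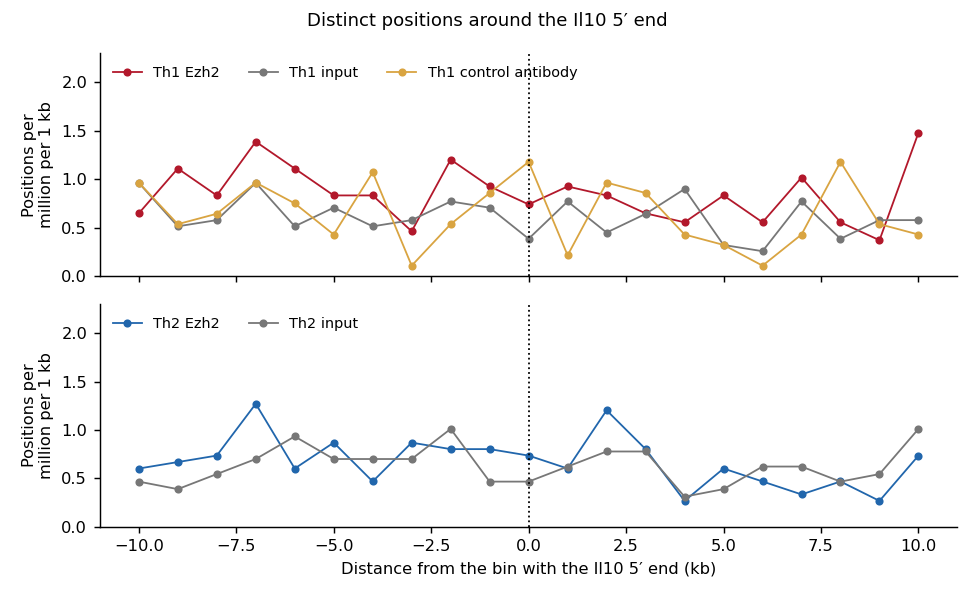
Level of each library, in distinct positions per 1000000 positions, in each 1 kb bin from 10 kb before to 10 kb after the bin with the Il10 5′ end (dotted line), with the Th1 libraries above and the Th2 libraries below. No Ezh2 peak stands at the 5′ end, where the control antibody is the highest of the 3 Th1 libraries.

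The second question was how the cluster compared with its surroundings and with other stretches of the same length. The 160 kb before the cluster had a Th1 Ezh2 fold of 1.15 (1.06 to 1.25) and a Th2 fold of 1.13 (1.05 to 1.23). The 160 kb after it had folds of 1.07 in Th1 (0.993 to 1.16) and, for Th2, 0.977 (0.903 to 1.06). The Th1 value of the cluster was above those of both flanks, with intervals that met only that before it, while the Th2 value equalled that of the flank before it to 3 digits. Among 50 tiles of 40 kb within 1 Mb on either side, folds ranged from 0.618 to 2.54 in Th1 and 0.687 to 2.55 in Th2, with medians of 1.00 and 0.981. Of these tiles, 3 exceeded the highest 40 kb of the cluster in Th1 and 11 did in Th2. The nearest called region of at least 3 kb lay 203 kb after the window in Th1 (chr1:133138001-133141000, 3.29-fold, 2.08 to 5.34) and 204 kb after it in Th2 (chr1:133139001-133142000, 5.56-fold, 3.42 to 9.56).

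**Figure D4:**
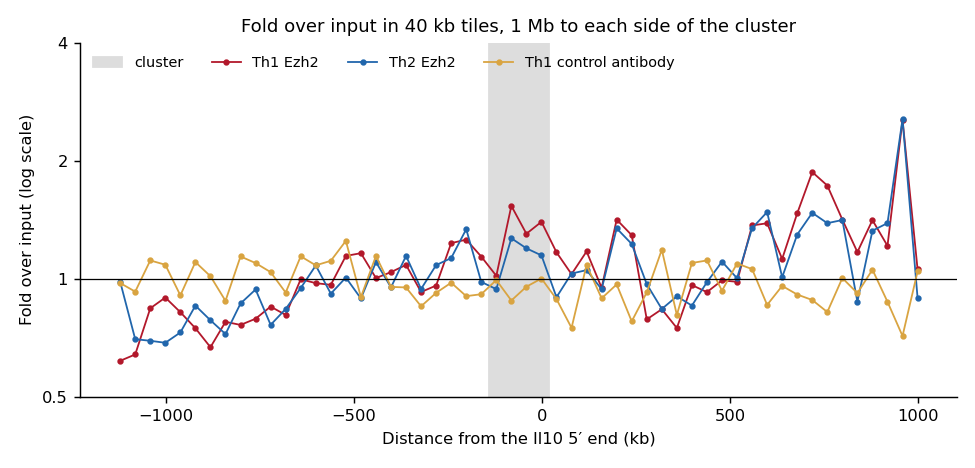
Fold over input (log scale) in tiles of 40 kb, 1 Mb to each side of the cluster (grey band), for Th1 Ezh2, Th2 Ezh2 and the Th1 control antibody, against the distance from the Il10 5′ end. The cluster sits at modest folds of 1.02 to 1.53 in Th1, under the highest value of 2.54 at the right.

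Over 14551 windows of 160 kb with at least 500 positions in each input, the median Ezh2 fold was 0.896 in Th1 and 0.895 in Th2. The range from the 5th to the 95th percentile was 0.676 to 1.48 in Th1 and 0.692 to 1.498 in Th2, which holds the cluster in each. Windows with a higher fold than the cluster numbered 1421 in Th1 (9.77%) and 2735 in Th2 (18.8%). For the control antibody 67.0% of windows were higher. The cluster was thus in the upper part of the distribution of Ezh2 and not among its extremes.

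The third question was whether Th1 and Th2 differed. The Ezh2 level of the cluster was 1.22 times as high in Th1 as in Th2 (1.13 to 1.32), and the input level 1.06 times as high (0.978 to 1.15). In the 160 kb after the cluster the Ezh2 level was also higher in Th1, at a ratio of 1.15 (1.06 to 1.24) that overlaps the interval of the cluster, and in the 160 kb before it the ratio was 1.02 (0.939 to 1.101). Once the inputs entered, the Th2 fold over input was 0.868 of the Th1 fold (conditional exact 95% interval 0.775 to 0.973). Each 40 kb stretch pointed the same way, with Th2 at 0.924, 0.826, 0.918 and 0.821 of Th1 from the Il24 side to Il10, but each of these intervals held 1. Around the Il10 5′ end the value was 0.824 over 5 bins (0.457 to 1.49) and 0.771 over 21 bins (0.575 to 1.03).

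The Th1 excess was spread over the cluster in small amounts. In 15 of the 16 tiles of 10 kb the Ezh2 level was higher in Th1, where 50.0% of all tested tiles were. These adjacent tiles make up the window compared above, so their count is not separate from its ratio. Once the inputs entered, the fold over input was higher in Th1 in 12 of the 16, a share not counted over all tiles. The interval of the fold ratio left 1 in 1 tile, 31 to 22 kb before the Il10 5′ end, where the Th2 fold was 0.625 of the Th1 fold (0.398 to 0.983) and the control antibody was at 1.59-fold in Th1. These 16 intervals were not adjusted for their number, and the share of such tiles over all tiles was not counted. That tile is therefore given only as a description. The tile with a lower Th1 level spanned 61 to 52 kb before the Il10 5′ end, with 78 Th1 and 123 Th2 positions and a Th1 to Th2 ratio of 0.878 (0.652 to 1.18). The ratio had a median of 1.21 over the 16 tiles against 0.999 over all. None of the 16 tiles passed the two-sided exact binomial test, with the lowest adjusted p at 0.249, and 3 had an unadjusted p below 0.05, where 9.86% of all tiles did. In libraries simulated at the cluster's depth, this test called 2.0% of tiles with a ratio of 1.5 and 78% with a ratio of 2. Nearly all simulated tiles had no difference, which makes the adjustment over all tiles stricter than in the real libraries. The simulated shares therefore do not carry over to them. Ratios of the size seen here, at most 1.49, could be missed, but how often was not measured. Of all 249782 tested tiles, 0.199% were called higher in Th1 and 0.344% higher in Th2, so 0 calls lies near the background. With the added limit of a 1.5-fold ratio the shares were 0.196% and 0.233%. With all deposited reads in place of distinct positions, 5 of the 16 tiles were higher in Th1 and 0 in Th2, against 9.67% and 10.1% of all tiles.

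**Figure D5:**
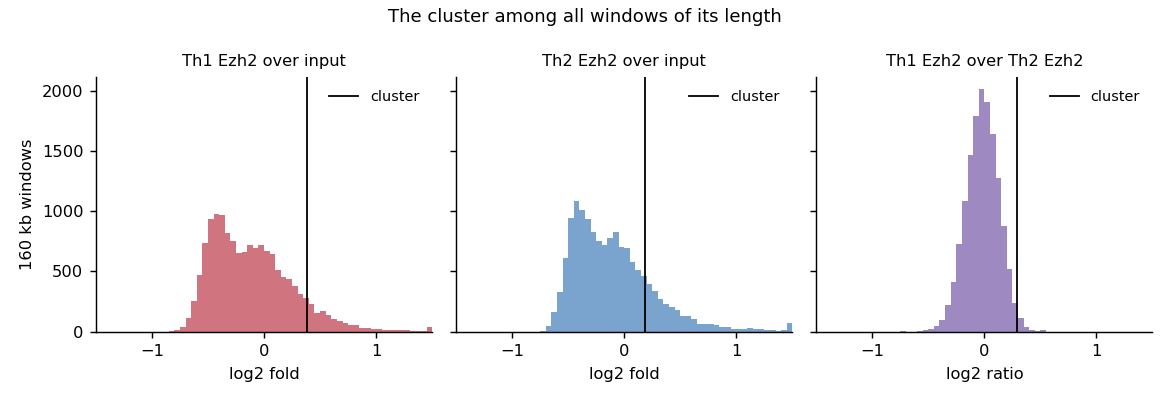
Numbers of 160 kb windows by log2 of Ezh2 over input in Th1, in Th2, and of the Th1 over the Th2 Ezh2 level, with the cluster as a black line and values beyond the axis counted in the end bars. The cluster lies inside the bulk for both folds and in the right tail for the ratio of Th1 to Th2, which 1.48% of windows exceeded.

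Set among all 14551 windows, the Th1 to Th2 ratio of Ezh2 positions in the cluster was near the upper end. Its value of 1.22 was exceeded by 216 windows (1.48%), and the 5th and 95th percentiles were 0.835 and 1.16. The ratio of the folds was less extreme, since 93.6% of windows had a higher Th2 fold relative to Th1, with 5th and 95th percentiles of 0.859 and 1.19. The ratio of the inputs in the cluster was exceeded by 17.1% of windows. Over all windows the ratio of Ezh2 positions had a standard deviation of 0.148 on the log2 scale, so the counting interval of the cluster leaves out differences that exist between these libraries across the genome. Different run labels stand in the names of the Th1 and Th2 Ezh2 files, and with 1 library each, cell type and run cannot be told apart.

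The number of reads per position did not set the cluster apart. It was 2.25 in Th1 Ezh2 and 2.01 in Th2 Ezh2 within the window, against 2.24 and 2.04 over the whole of these libraries. In the inputs it was 1.27 in Th1 and 1.76 in Th2, against 1.29 and 1.77.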

How the data were processed

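The deposited values are read counts, with no normalization: each line of a file holds 1 interval of 119 bp (another length in a few lines) with no strand given, beside how many reads share it, as a count. The submitters' processing notes name CASAVA and mm9; the sources used here give no alignment settings, read extension or filters. Per the labels, gel fractions of 170 to 250 bp went through 18 PCR cycles and 36 sequencing cycles. Libraries held between 9326717 and 15578675 positions on chromosomes 1 to 19 and X, except the Th2 control antibody, whose file was not used.

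Each distinct interval was counted once, at its midpoint, in 1 kb bins and in tiles on a grid that starts at the window (Python 3.11.15, numpy 2.4.6, scipy 1.17.1, pandas 2.3.3). Ezh2 was tested against input in all bins with at least 10 positions by one-sided exact binomial tests, and Th1 against Th2 by two-sided ones, with Benjamini-Hochberg adjustment over all tested units. Called bins were joined into 1 region across gaps of up to 1 bin. Simulated libraries with known folds were used to check each test. Named bins are the 3 of highest fold among those tested in each cell type; like genes were not sought, since genes were not placed. The members and all lists were chosen with earlier results of these data known. Alternatives were other tile sizes, all reads, background scaling, other references, other limits and, added later, left-out tiles and shifted windows.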

Additional observations from a re-analysis of the deposited data

How the results depend on the processing

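Of 70 alternative values, 58 stayed within the interval or within 1.5 times the count or share given above, and 12 did not. Stricter limits could not change a count of 0, so those values stayed by construction. The 58 also include the background scaling values at the Il10 5′ end given below, which lay within wide main intervals. A change of direction was not scored separately. Background scaling, with totals from the 10 kb tiles below the median of Ezh2 over input, raises every fold by construction, by 0.51 in Th1, 0.49 in Th2 and 0.28 for the control antibody on the log2 scale. It moved the cluster to 1.86-fold in Th1, 1.59-fold in Th2 and 1.17-fold for the control antibody. Over the 5 bins at the Il10 5′ end it gave 2.14-fold in Th1 and 1.74-fold in Th2, with intervals that no longer held 1. It also called 3 bins of 1 kb in each cell type (4.0% and 3.53% of all bins), and 6 tiles of 10 kb in Th1 and 3 in Th2 (9.34% and 8.52% of all tiles). For the control antibody it called 0 bins (0.0128% of all) and 0 tiles (2.23% of all). With all deposited reads, which are not independent molecules after PCR, 10 bins were called in Th1 and 9 in Th2 (3.83% and 5.83% of all). For the control antibody 1 bin was (1.06% of all). With all reads 5 tiles were higher in Th1 than in Th2 and 0 lower, against 9.67% and 10.1% of all tiles. Without the limit of fold, 2 tiles passed in Th1 and 1 in Th2 (4.71% and 4.74% of all). In tiles of 5 kb, 1 was called in Th1 (2.25% of all), 86 to 82 kb before the Il10 5′ end, at 2.11-fold. The Th2 fold relative to Th1 ranged from 0.818, with either input used for both, to 0.890, without the tile of lowest ratio. The share of windows above the cluster's Th1 to Th2 ratio was 1.39% with all reads and 1.42% with windows shifted by 80 kb. Left-out tiles, shifted windows and all alternatives of the Th1 to Th2 ratio of Ezh2 positions were chosen after seeing the data. No paired analysis was possible because there was only 1 library in any group.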
